A study of Homo sapiens with 6 samples.

Results

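The HOX cluster genes are the homeobox genes of the HOXA, HOXB, HOXC and HOXD clusters, and their levels were followed in Rh30 cells with and without the drug YK-4-279. Members were the rows of the gene table whose symbol is HOX, a cluster letter from A to D and a paralogue number, which gave 39 of 35268 named genes. The rule used no measured value. The HOXA cluster had 11 members, the HOXB cluster 10, and the HOXC and HOXD clusters 9 each.

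HOX genes encode homeodomain transcription factors that give cells of the embryo their position along the head to tail axis, and the 5′ groups also pattern the limbs and the urogenital tract. Each cluster keeps its genes in the order of their paralogue groups, which open in turn from the 3′ to the 5′ end during development, under Trithorax proteins that keep them active and Polycomb proteins that keep them silent. Adult and tumor cells often keep part of the HOX code of the place they came from. HOX proteins bind DNA together with TALE cofactors of the PBX and MEIS families.

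Rh30 is an established cell line of fusion-positive rhabdomyosarcoma (FP-RMS), a tumor of muscle-like cells driven by the fusion protein PAX3-FOXO1. YK-4-279 is a small molecule used in the study against partnerships of ETS factors, here between ETS1 and PAX3-FOXO1. mRNA was sequenced after 24 hours from 3 samples given 1 µM of YK-4-279 and from 3 samples given the vehicle, DMSO, and the labels name no genetic change in either group. The drug was given at 1 dose and 1 time, and Rh30 was the only line sequenced here.

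The libraries held between 16724650 and 24677433 reads on named genes. DMSO replicate 1 was the shallowest and stood apart, with a mean correlation of 0.989 with the other libraries across genes against at least 0.992 for the others. Of the 10 myogenic markers, 8 had a mean of at least 10 normalized counts, with MYOD1 and MYOG abundant, while MYF5 and MYF6 were near 0. In the limma comparison given below, 5 of these 8 had an unadjusted p under 0.05, all higher with the drug. Over all genes tested 18.7% had such a p, and 0 of the 8 had an adjusted p under 0.05. The summed blood cell markers were at 6.30 to 13.99 normalized counts in DMSO libraries and 23.9 to 28.3 in drug-treated libraries, with 4 of 6 markers at a mean under 1. The 6 epithelial markers summed to 139.9 to 148 and 148 to 194, and the 5 endothelial markers to 235 to 318 and 221 to 252, and 4 of the 6 epithelial markers had a mean of at least 10. EPCAM was at 64.6, KRT8 at 43.1, KRT18 at 32.9 and CLDN4 at 12.8, while CDH1 and KRT19 were near 0. Most of the endothelial sum was TEK, at a mean of 232 in DMSO and 176 with the drug. PECAM1, CDH5, KDR and VWF had means of 22.1, 11.8, 10.6 and 7.40. Of the 4 endothelial markers tested, TEK was lower with the drug and 3 were higher. All 6 libraries come from a cell line and not from a tissue, and the relation of these markers to the HOX values was not tested.

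All 4 HOX clusters were expressed in Rh30, and they differed in which of their genes were silent. A member was counted as expressed at a mean of at least 10 normalized counts over the 6 libraries, which 30 of the 39 members reached (76.9%), against 39.5% of all named genes. The named genes also hold noncoding RNAs and pseudogenes, while every member is protein-coding, so these shares are of unlike sets. The expressed members were 10 of 11 HOXA genes, 9 of 10 HOXB genes, 6 of 9 HOXC genes and 5 of 9 HOXD genes, and every one of the 30 was above 10 in every library. At a mean of at least 100, 19 members remained. Summed over its members and the 6 libraries, HOXB held 41.9% of the normalized counts on HOX genes, HOXA 27.5%, HOXC 15.8% and HOXD 14.8%. Per kilobase of the longest transcript the shares were 42.9%, 25.2%, 17.7% and 14.2%, and per kilobase of all exons of a gene 42.9%, 25.0%, 16.02% and 16.1%, so that the order of HOXC and HOXD depends on the length used.

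**Figure D1:**
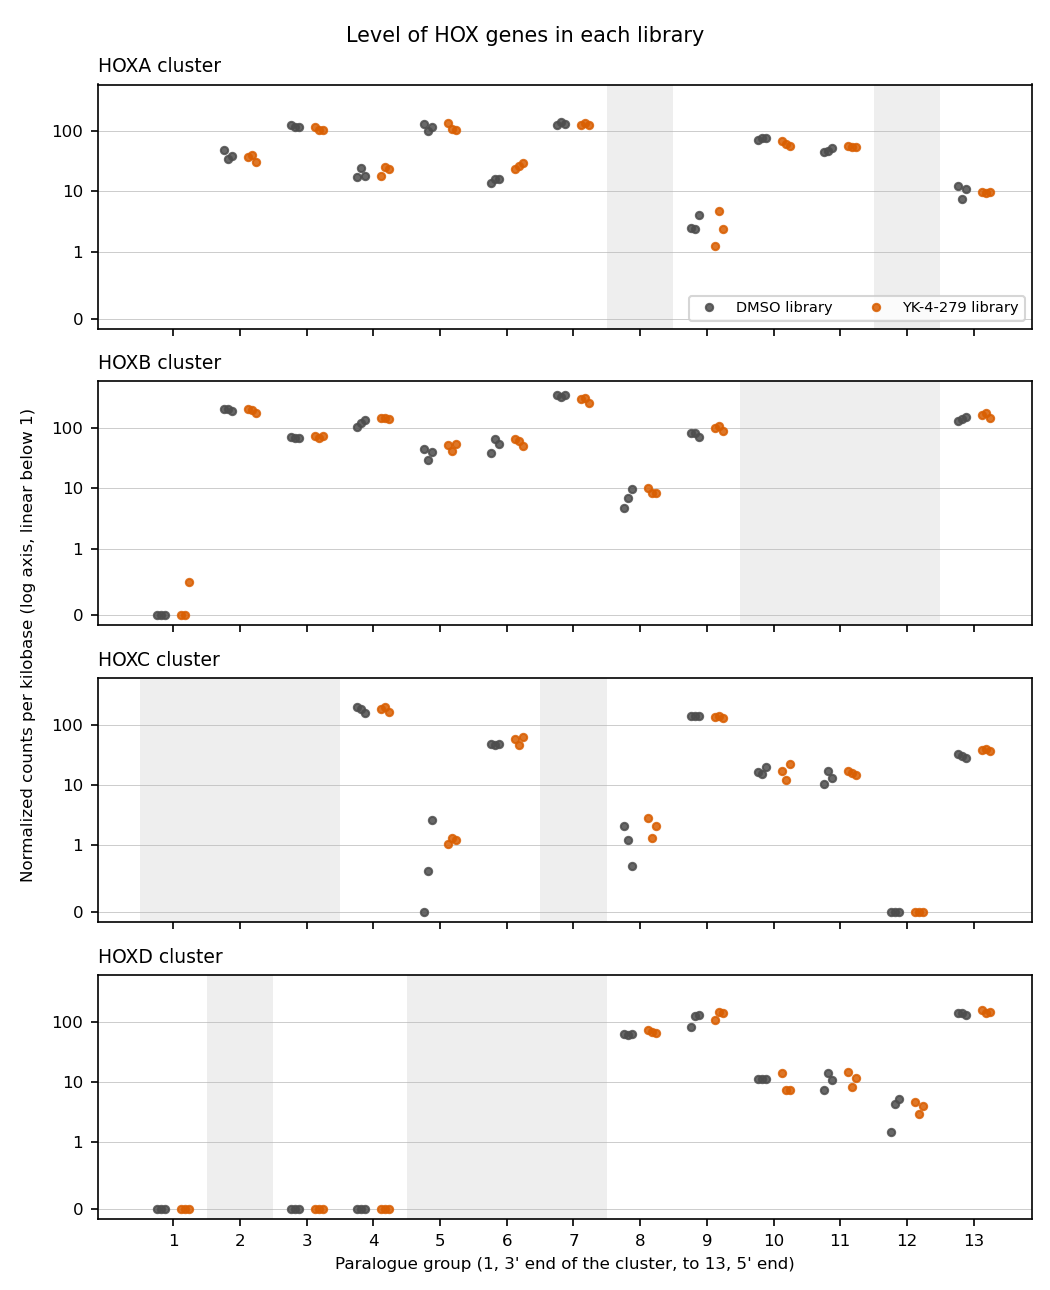
Level of the HOX genes reported here in each library, in normalized counts per kilobase of its longest transcript, against its paralogue group. Grey points are DMSO libraries and orange points are YK-4-279 libraries, the vertical axis is logarithmic above 1 and linear below it, and shaded columns are groups that the cluster lacks. HOXB7 is the highest at 318 per kilobase, and HOXC12, HOXD1, HOXD3 and HOXD4 are at 0 in all 6 libraries.

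The silent members were not at the same place in each cluster. In HOXD (hg38, chromosome 2, 176092721 to 176190907), the 3′ genes HOXD1, HOXD3 and HOXD4 had no read in any library, while HOXD8 and HOXD9 next to them were at 65.2 and 122 normalized counts per kilobase. HOXD4 shares no exon base with another gene, but HOXD1 shares 60.1% of its exon bases with other genes on either strand, among them the expressed antisense RNA HAGLR, and HOXD3 shares 14.1%, so that their values of 0 are uncertain where reads could not be given to 1 gene. In HOXC (chromosome 12, 53938831 to 54056030), the silent member was HOXC12, also with no read, between HOXC11 at 14.8 per kilobase and HOXC13 at 34.6. For these 4 genes a count of 0 allows up to 3 reads per library, which is 2.50 to 3.78 normalized counts. HOXB1, at the 3′ end of HOXB (chromosome 17, 48528526 to 48728750), had 1 read in the 6 libraries together, next to HOXB2 at 198 per kilobase. In HOXA (chromosome 7, 27092993 to 27200091) no member was without reads.

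The remaining members under a mean of 10 had some reads. HOXD12 had a mean of 9.62 normalized counts, just under the limit, HOXA9 5.96, HOXC8 4.14 and HOXC5 1.84. Just above it were HOXB8 at 17.5 and HOXD10 at 18.5 normalized counts. HOXC5 shares 67.3% of its exon bases with other genes on its strand. HOXA9 shares 15.9% on its strand, and further bases with the antisense RNA HOXA10-AS. The values of HOXC5 and HOXA9 are therefore uncertain. HOXC8 and HOXD12 share no exon bases with other genes.

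The edge of the silent stretch of HOXD is shown by the sequence before the transcription start sites of HOXD8, HOXD4 and HOXD3, as the 3 members beside this edge for which a promoter was at hand. Of the 39 members, 20 were matched by symbol to RefSeq promoters (GRCh38.p14, 250 bases before to 50 after the start), in 19 distinct windows, since HOXC4 and HOXC5 have the same one. The stretches printed end before the RefSeq start of their gene and overlap no GENCODE exon, all lie on the plus strand, and capitals mark CpG dinucleotides. GENCODE places HOXD3 at 176136612 to 176173102, so that the stretch before the RefSeq start of HOXD3 and that of HOXD4 both lie in introns of HOXD3 as GENCODE annotates it. They are chr2:176129455-176129693 for HOXD8, chr2:176151300-176151549 for HOXD4 and chr2:176157057-176157306 for HOXD3.
HOXD8: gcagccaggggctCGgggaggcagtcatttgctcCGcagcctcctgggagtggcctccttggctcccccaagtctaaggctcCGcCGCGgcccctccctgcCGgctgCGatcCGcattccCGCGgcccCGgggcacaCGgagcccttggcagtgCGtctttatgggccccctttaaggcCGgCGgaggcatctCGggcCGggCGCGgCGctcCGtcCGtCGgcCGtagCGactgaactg
HOXD4: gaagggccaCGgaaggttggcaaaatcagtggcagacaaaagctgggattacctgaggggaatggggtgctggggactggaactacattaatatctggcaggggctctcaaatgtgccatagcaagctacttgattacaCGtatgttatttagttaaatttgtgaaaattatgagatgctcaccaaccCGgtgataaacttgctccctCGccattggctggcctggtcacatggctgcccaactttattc
HOXD3: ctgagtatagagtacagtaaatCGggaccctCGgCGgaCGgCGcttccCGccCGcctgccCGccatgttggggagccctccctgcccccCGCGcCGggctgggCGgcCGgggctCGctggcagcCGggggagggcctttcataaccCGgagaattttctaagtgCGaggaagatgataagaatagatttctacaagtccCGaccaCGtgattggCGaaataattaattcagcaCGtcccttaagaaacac

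The expressed HOXD8 has 25 CpG in 239 bases, the silent HOXD4 has 4 in 250 bases and the silent HOXD3 has 21 in 250 bases. Members without reads thus included CpG-poor and CpG-rich starts. The values of 0 of the CpG-rich HOXD3 and HOXD1 are uncertain, as both share exon bases with other genes. Over whole windows of 300 bases, HOXD1, also without reads, has 36 CpG and the expressed HOXD8 has 34. The 20 windows had a median of 22.5 CpG, against 14 over all 27305 promoters and 26 over those of genes that passed the limit. The ETS core CCGGAA, searched on both strands, was in 0 of the 20 windows, against 17.6% of all promoters and 29.2% of those of tested genes. The PAX paired domain core GTCACGC, also on both strands, was in 1 window, that of HOXD8, against 2.61% of all promoters and 3.88% of those of tested genes. Members not matched included HOXA5, HOXB2 to HOXB9, HOXB13, HOXC6, HOXC8 to HOXC13 and HOXD9.

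Among expressed members the level per kilobase spanned a 39.7-fold range, from 8.02 for HOXB8 to 318 for HOXB7. The 5 highest were HOXB7, HOXB2 at 198, HOXC4 at 181, HOXB13 at 153 and HOXD13 at 142 normalized counts per kilobase, and together they made up 39.8% of the summed level. Per kilobase of all exons HOXC4 dropped to 112 and HOXB2 to 136, HOXB4 at 134 took the place of HOXC4 among the 5 highest, and HOXB7 was still the highest at 286. The highest member of HOXA was HOXA7 at 133 by the longest transcript, and HOXA5 at 114 by all exons, with HOXA7 at 111. HOX genes were modest among expressed genes, with a median of 60.7 per kilobase over the 30 members against 141 over the tested genes with a length. HOXB7, the highest, lay above 71.9% of them.

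The paralogues of a group were expressed unequally. In group 13, the most 5′ group, which patterns the ends of the limbs and the hindgut and its derivatives, HOXB13 and HOXD13 were at 153 and 142 normalized counts per kilobase, HOXC13 at 34.6 and HOXA13 at 9.92. In group 9, HOXC9, HOXD9 and HOXB9 were at 138, 122 and 89.1, and HOXA9 at 2.89. The value of HOXA9 is uncertain, as it shares exon bases with other genes. In group 4, HOXC4 and HOXB4 were at 181 and 134, HOXA4 at 21.2 and HOXD4 at 0, and by all exons the order of the leading pair turned, with HOXC4 at 112 and HOXB4 at 134. Summed over paralogues, group 7 was the highest at 452 per kilobase, carried by HOXB7 and HOXA7, and group 12 the lowest at 3.78, from HOXD12 alone. Groups 10 and 11, which pattern the lumbar and sacral spine and the middle limb segments, summed to 96.8 and 78.2, with HOXA10 at 69.2 and HOXA11 at 52.2 the largest parts of each.

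Within DMSO the libraries agreed closely for abundant members. The coefficient of variation over the 3 DMSO libraries had a median of 7.94% over the 30 members, 5.76% over the 19 with a mean of at least 100 and 19.2% over the 11 below it. The difference that leading members show in level, such as 318 for HOXB7 against 198 for HOXB2 per kilobase, is larger than this spread, whereas neighbours by the longest transcript such as HOXB4 and HOXA7 at 134 and 133 are not separated. Of the 30 members, 13 share exon bases with another gene on the same strand and 21 on either strand. The strand setting of the counting is not given in the sources used here. Reads of HOXA7, which overlaps HOXA-AS3 over 62.5% of its exon bases, and of HOXA11, which overlaps HOXA11-AS over 27.2%, can then not be told apart from those of their antisense partners. HOXD10 and HOXD11 share 18.2% and 21.4% of their exon bases on the same strand.

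With YK-4-279 no HOX gene passed the test across all genes. In limma with Benjamini-Hochberg adjustment, 0 of the 30 members had an adjusted p under 0.05, where 475 of 13930 genes tested did (3.41%, of which 1.26% higher and 2.15% lower), and the smallest adjusted p of a member was 0.122, for HOXB9. On the recovered reads edgeR also called 0 members, and DESeq2 called 0 of the 24 to which it gave an adjusted p, which it did not give for HOXA4, HOXA6, HOXB8, HOXC10, HOXD10 and HOXD11. At an unadjusted p under 0.05 there were 7 members, 5 higher (HOXB9, HOXA6, HOXB13, HOXB4 and HOXC13) and 2 lower (HOXA10 and HOXB7), which is 23.3% of members against 18.7% of all genes tested (7.69% higher and 11.0% lower). In 10 members the groups did not overlap, 6 higher and 4 lower, which is 33.3% against 26.0% (10.9% higher and 15.1% lower). Over the 5625 tested genes with a mean between those of the lowest and the highest member, a range taken after the values were seen, the shares were 15.2% and 21.3%. The shares of the members, at this number of genes, are near the background and are not read as a result about HOX genes. In bulk libraries a change in the RNA per cell and a change in the share of cells that express a gene cannot be told apart.

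The 95% confidence interval lay within a change of 1 on the log2 scale for 28 of 30 members, and within 0.5 for 14, all of them among the 19 with a mean of at least 100. A change of 2-fold or more was therefore outside the interval for every abundant HOX gene, while HOXA6 and HOXB8 had intervals that passed 1. Most members were on the higher side, 20 above 0 and 10 below, with a median log2 fold change of 0.13 against -0.01 over all genes tested, of which 48.0% were above 0. Over the 5625 genes of the members' range of means the median was 0.04 and 57.9% were above 0. The median over the HOX genes fell to 0.06 when a smooth trend with GC content and transcript length was taken out of each library, and to 0.07 with quantile normalization. By cluster the medians were -0.0025 for HOXA, 0.23 for HOXB, 0.12 for HOXC and 0.11 for HOXD, over 10, 9, 6 and 5 members.

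**Figure D2:**
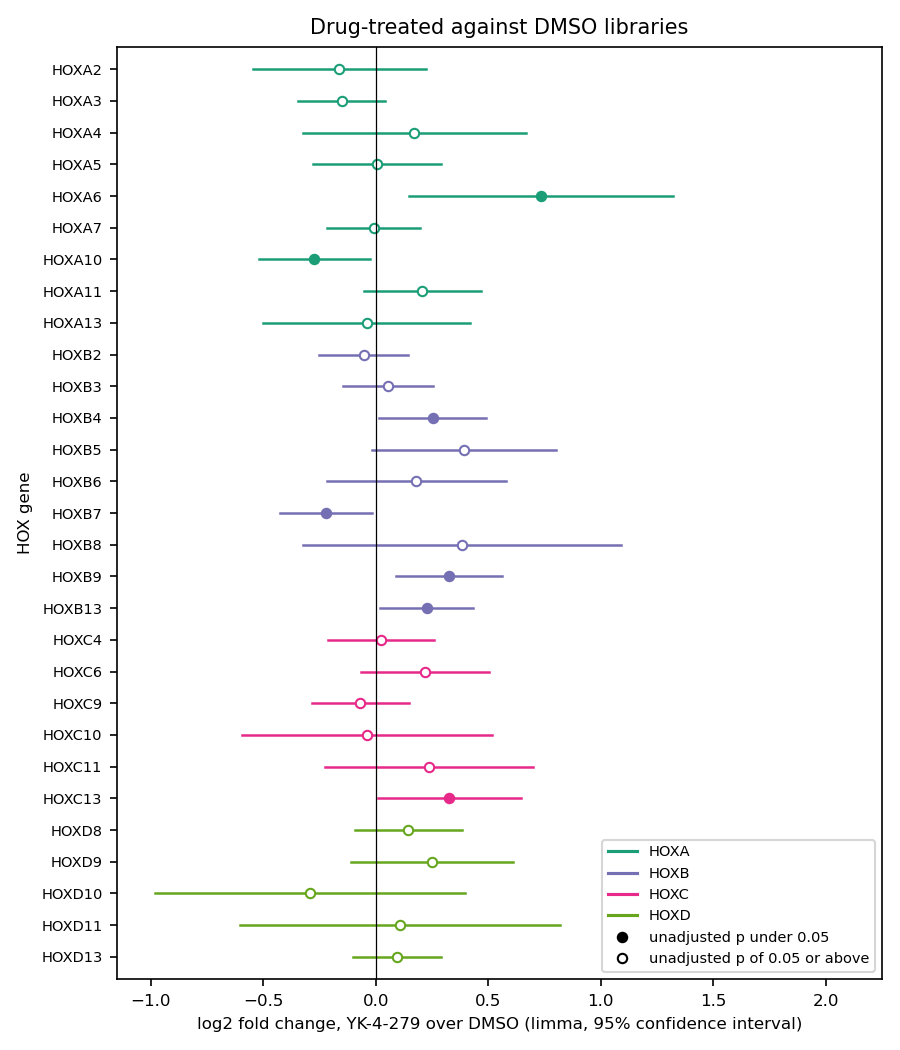
Log2 fold change of the tested HOX genes reported here, YK-4-279 over DMSO, with the 95% confidence interval from limma, in the order of the clusters. Filled points have an unadjusted p under 0.05. The 7 filled points lie between -0.27 and 0.73, and no member has an adjusted p under 0.05.

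**Figure D3:**
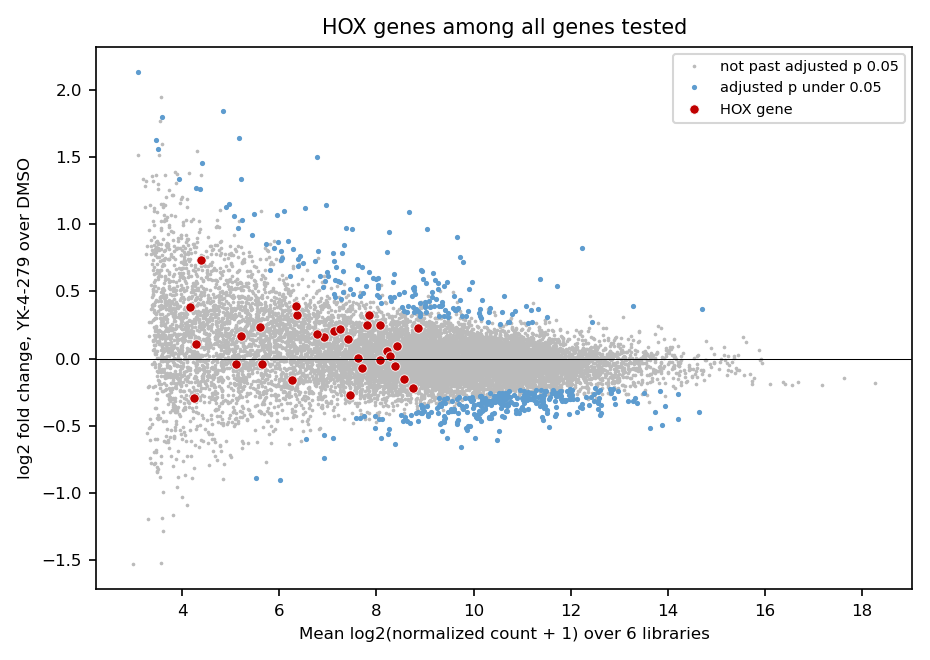
Log2 fold change against the mean log2(normalized count + 1) of all 13930 genes tested, with the 475 called genes in blue and the 30 HOX genes in red. The HOX genes lie within the cloud of genes that were not called, between -0.29 and 0.73.

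HOXB9, a group 9 gene of the trunk, had the smallest p. It was at 214, 213 and 185 normalized counts in the DMSO libraries, in replicate order, and at 257, 276 and 236 with YK-4-279. All drug-treated libraries were above all DMSO libraries, and the log2 fold change by limma was 0.33 (SE 0.11, unadjusted p = 0.0100, adjusted p = 0.122). Without DMSO replicate 1 the change was 0.36 and the adjusted p 0.0192, so that the call turns on that library. Leaving it out also raised the genes called over all genes tested from 475 to 1823.

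HOXA6, a weakly expressed trunk gene, had the largest fold change. It shares 40.1% of its exon bases with other genes on either strand, among them HOXA-AS3. Its counts were 13.9, 16.0 and 15.9 in DMSO and 23.1, 26.1 and 29.0 with the drug, with no overlap. The log2 fold change by limma was 0.73 (SE 0.27, unadjusted p = 0.0176, adjusted p = 0.166), and its interval from 0.15 to 1.32 was among the widest of the members.

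HOXA10 and HOXB7 were on the lower side. HOXA10, which patterns the lumbar region and the uterus, was at 182, 196 and 199.6 in DMSO and 173, 158 and 147 with the drug, which did not overlap. HOXB7, the highest member per kilobase, was at 477, 444 and 479 in DMSO and 422, 430.3 and 353 with the drug, also without overlap. Their log2 fold changes were -0.27 (SE 0.11, adjusted p = 0.224) for HOXA10 and -0.22 (SE 0.10, adjusted p = 0.237) for HOXB7. With the GC and length trend removed they reached -0.34 (adjusted p = 0.0475) and -0.27 (adjusted p = 0.0485), the only alternative in which they passed. With this trend removed 1795 of all genes tested were called, against 475 in the main fit. That trend was largest in DMSO replicate 1, with an SD across genes of 0.14 on the log2 scale against 0.02 to 0.06 in the other libraries.

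The other 3 members with an unadjusted p under 0.05 were on the higher side. HOXB13, a marker gene of prostate and hindgut identity, was at 398, 427 and 458 in DMSO and 503, 551 and 449 with the drug. Its lowest drug-treated library lay below the highest DMSO library. HOXB4, known for its role in blood stem cells, was at 213, 248 and 278 in DMSO and 296, 291 and 289 with the drug, with no overlap, though the range over DMSO libraries was wider than the difference of the means. HOXC13, known for its role in hair and nails, was at 78.2, 71.9 and 66.8 in DMSO and 90.0, 94.5 and 88.0 with the drug, also with no overlap. The log2 fold changes were 0.23, 0.25 and 0.33, with adjusted p of 0.228, 0.239 and 0.257.

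**Figure D4:**
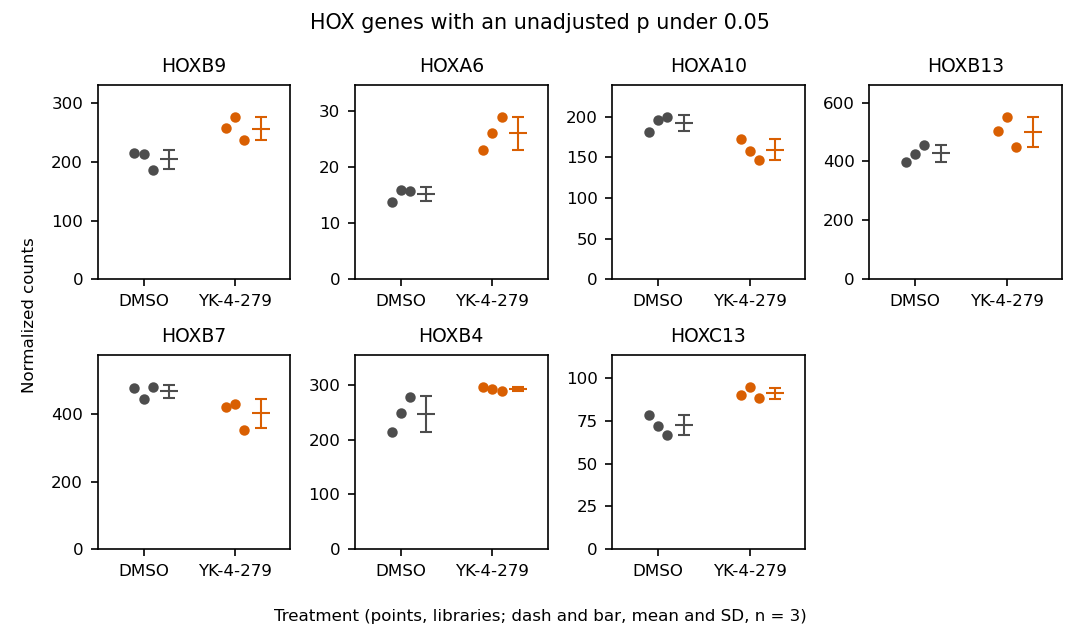
Normalized counts per library of the 7 HOX genes with an unadjusted p under 0.05, with the mean and SD of each group beside the points (n = 3). DMSO and YK-4-279 libraries are apart in every panel but that of HOXB13, where 449 lies below 458.

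In the members that lead the other clusters by the longest transcript the groups lay close together. By all exons HOXA5 led HOXA and HOXC9, at 125, led HOXC. HOXA7 was at 257, 287 and 264 normalized counts in DMSO and 261, 279 and 261 with the drug, a log2 fold change of -0.01 (95% confidence interval -0.22 to 0.20). HOXC4 was at 334, 319.8 and 269 in DMSO and 312, 339 and 284 with the drug, at 0.02 (-0.21 to 0.26). HOXD13, the gene of the digits, was at 339, 344 and 316 in DMSO and 378, 337 and 352 with the drug, at 0.09 (-0.10 to 0.29). In all 3 the groups overlapped. The most negative estimate was that of HOXD10, at 20.17, 19.99 and 20.04 in DMSO and 24.8, 13.04 and 13.01 with the drug. Its log2 fold change of -0.29 (-0.98 to 0.40) came from 2 of the 3 drug-treated libraries, while YK-4-279 replicate 1 was the highest of all 6.

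The other 19 tested members had log2 fold changes between -0.16 for HOXA2 and 0.39 for HOXB5. HOXB5 was at 70.9 ± 15.5 normalized counts in DMSO and 92.5 ± 13.3 with the drug (SD, n = 3), and its groups overlapped (unadjusted p = 0.0581). Of these 19, the groups were apart without an unadjusted p under 0.05 in HOXA11 and HOXD8, which were higher, and in HOXA3 and HOXC9, which were lower. HOXC9 is an example of how small such a difference can be, at 213 ± 1.52 in DMSO and 203 ± 4.86 with the drug. HOXD9 had a wide spread, at 209 ± 47.3 in DMSO, with DMSO replicate 1 at 155 against 232 and 241, and 247 ± 41.2 with the drug. The groups overlapped in the members under the limit that had reads in both groups. HOXA9 was at 4.996 to 8.35 normalized counts in DMSO and 2.57 to 9.78 with the drug, HOXC8 at 1.67 to 5.04 and 3.26 to 6.86, and HOXD12 at 3.78 to 13.4 and 7.61 to 12.0. HOXD1, HOXD3, HOXD4 and HOXC12 had no read in the 3 drug-treated libraries, and HOXB1 had its only read there.

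Summed over a cluster, the groups overlapped in HOXA and HOXB and did not overlap in HOXC and HOXD. The HOXA sum was 1485 ± 41.9 normalized counts in DMSO and 1448 ± 65.2 with the drug, and the HOXB sum 2165 ± 47.8 and 2309 ± 131 (SD, n = 3), and in both the libraries of the groups overlapped. The HOXC sum was 837, 832 and 782 in DMSO and 872, 861 and 856 with the drug. The HOXD sum was 696, 789 and 771 in DMSO and 830.3, 825 and 830.4 with the drug. In HOXC and HOXD each drug-treated library was thus above each DMSO library, by 0.08 and 0.14 on the log2 scale of the means. These sums were not tested, and among single genes tested 10.9% were higher without overlap and 15.1% lower. All HOX genes together took 0.0245% to 0.0256% of the reads in DMSO libraries and 0.0263% to 0.0282% in drug-treated libraries, which did not overlap, while the normalized sums of 5167 to 5274 and 5237 to 5610 did.

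Genes beside and between the HOX genes were examined in the same fit. Within the clusters lay 24 rows that were no member, and 8 reached the limit, all noncoding RNAs, with 0 called by limma and 0 at an unadjusted p under 0.05. HOXB-AS3 was the highest, at a mean of 75.1 normalized counts. HOTAIR, transcribed from the other strand of the HOXC cluster, was at 29.4 ± 2.10 in DMSO and 20.2 ± 8.12 with the drug, without overlap (adjusted p = 0.336). HAGLR, the antisense RNA at the silent 3′ end of HOXD, was at a mean of 29.4 although HOXD1, HOXD3 and HOXD4 had no read. Of 40 protein-coding rows beside the clusters 32 were tested and 2 were called, where 3.41% of all genes were. CREB5, past the 5′ end of HOXA (chromosome 7, 28299321 to 28825894), was higher by 0.39 on the log2 scale (adjusted p = 0.0218), and CBX5, past the 3′ end of HOXC (chromosome 12, 54230942 to 54280133) and coding for heterochromatin protein HP1 alpha, was lower by 0.24 (adjusted p = 0.0301). The homeobox genes next to the 5′ ends of HOXA and HOXD, EVX1 and EVX2, were at 0 and 0.628.

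The regulators and partners of HOX genes were read from the same table, by lists of genes written by function. All 11 TALE cofactors were expressed and 0 were called, with 1 at an unadjusted p under 0.05, PBX4 at a log2 fold change of -0.44 (adjusted p = 0.203). PBX3, the most abundant, was at 2424 ± 208 normalized counts in DMSO and 2384 ± 22.4 with the drug. Of 15 Trithorax and MLL complex genes 1 was called (6.67% against 3.41% over all genes), PSIP1, which codes for the LEDGF tether of the MLL complex and was lower by 0.31 (adjusted p = 0.0275). WDR5, the most abundant of them, was at 4736 ± 224 and 4214 ± 35.9 (adjusted p = 0.128).

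Of 23 Polycomb group genes 3 were called, which is 13.04% against the 3.41% over all genes, and all 3 fell, where 2.15% of all genes did. EZH2, the H3K27 methyltransferase, was lower by 0.25 (adjusted p = 0.0459), and the histone-binding subunits RBBP4 and RBBP7 by 0.32 (adjusted p = 0.0129) and 0.27 (adjusted p = 0.0222). RBBP4 and RBBP7 also belong to chromatin assembly and deacetylase complexes. The median over the list was -0.06, with 16 genes below 0. Of the 2 H3K27 demethylases KDM6B was higher by 0.36 (adjusted p = 0.0489) and KDM6A was at -0.08 (adjusted p = 0.557). The part of these genes in the HOX levels was not tested. Over all the lists of regulators and partners 7 genes were called, which became 21 without DMSO replicate 1, 2 without DMSO replicate 3 and 0 without any of the YK-4-279 libraries.

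The retinoic acid pathway, which acts on 3′ HOX genes in the embryo, had 13 of 17 genes tested and 2 called, both higher, where 1.26% of all genes were. DHRS3, which reduces retinaldehyde and lowers retinoic acid, went from 25.2 ± 1.25 normalized counts in DMSO to 53.2 ± 10.2 with the drug, a log2 fold change of 1.03 (adjusted p = 0.0232). ALDH1A1, which makes retinoic acid, went from 102 ± 17.5 to 158 ± 14.6, at 0.64 (adjusted p = 0.0355). In the same libraries the 8 expressed HOX genes of groups 1 to 4 had a median log2 fold change of 0.04, against 0.18 for the 9 of groups 5 to 8 and 0.11 for the 13 of groups 9 to 13. The difference between these groups, and a part of the pathway in it, was not tested. Of 5 upstream axial regulators CDX1, CDX2 and CDX4 were near 0, and 0 of the 2 tested were called, with 0 at an unadjusted p under 0.05. Of 18 other homeobox genes 12 were tested, with 0 called and 1 at an unadjusted p under 0.05, and PITX3 was the most abundant at a mean of 5784 normalized counts.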

How the data were processed

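Gene expression was measured by mRNA sequencing of 6 Rh30 libraries, 3 with YK-4-279 and 3 with DMSO, grouped by the sample labels. The authors trimmed reads with BBDuk, aligned them to hg38 with STAR 2.7.9a, counted them per gene and normalized with DESeq2 1.44.0. The annotation they counted against is not given in the sources used here. What the authors deposited is a normalized signal for each gene, the number of reads times a factor of the library. Dividing by the value of 1 read gave whole reads for 100% of values in each library (tolerance 0.001). Of 35269 rows, 1 without a name (at most 6 reads) was left out.

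The groups were compared in R 4.3.3 by limma 3.58.1 (lmFit, then eBayes with its trend option) after log2(normalized count + 1), two-sided, over 13930 genes with a mean of at least 10, with Benjamini-Hochberg adjustment at 0.05 over all of them. Fold changes are on that scale, which understates changes of low genes. Floors and read totals cover counting error only. The labels do not say whether replicates were separate cultures, so p-values measure only the spread between these samples, which may be technical. Levels between genes are per kilobase of the longest GENCODE release 44 transcript, which also gave positions, with the length of all exons as an alternative. Alternatives were pseudocounts, filters, TMM and quantile scaling, eBayes with no trend, a block on replicate number, each library left out, removal of a GC and length trend, and the count tests of DESeq2 1.42.0 and edgeR 4.0.16. The code was tested on simulated data.

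The members, lists and rules were chosen with earlier results of these data known. Values per library are given for members with an unadjusted p under 0.05, for the highest per kilobase of each cluster and for the lowest and highest fold change. Of each other list the most abundant and the called genes are named, and of the genes beside the clusters the called ones. The values of 1 tested member and of 1 listed gene are not reported here, though both are in the counts, sums and medians. PBX4, HOTAIR, HAGLR, KDM6A, EVX1 and EVX2 were added after their values were seen.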

Additional observations from a re-analysis of the deposited data

How the results depend on the processing

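The 0 HOX genes called by limma stayed 0 under TMM, quantile scaling, the other filters and pseudocounts, no trend, the replicate block, edgeR and, for the 24 members with an adjusted p there, DESeq2. Leaving out each library gave 0 to 1, the 1 being HOXB9 without DMSO replicate 1, and removing the GC and length trend gave 2 (HOXA10 and HOXB7). The number of genes called, 475, became 277 with quantile normalization, 33 without the trend in eBayes, 1795 with the GC and length trend removed and 180 with the replicate block, and leaving out each library gave 19 (without YK-4-279 replicate 1) to 1823 (without DMSO replicate 1), with 242 without DMSO replicate 3 and 23 and 46 without YK-4-279 replicates 2 and 3. The listed genes called, 7, became 2, 0, 20 and 1 under these settings in the same order, and 0 to 21 when each library was left out. Same-numbered libraries did not deviate together (correlations -0.10, -0.03 and -0.03), so the replicate numbers were not taken as pairs. The median log2 fold change of the HOX genes, 0.13, was 0.066 with quantile normalization and 0.061 with the trend removed, and 0.074 to 0.152 when each library was left out. The HOX genes counted as expressed went from 30 to 19 at a mean of at least 100.

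Of the 30 members, 23 kept their sign under every alternative run, and 7 with main sizes of at most 0.18 changed it without being called. Their log2 fold changes with the sign turned were -0.024 (quantile) and -0.034 (trend removed) for HOXA5, 0.0081 (TMM), 0.0043 (edgeR) and 0.00085 (DESeq2) for HOXA7, -0.016 (trend removed) for HOXC4, 0.0045 (edgeR) and 0.0033 (DESeq2) for HOXC10, and -0.086 (quantile) and -0.00046 (trend removed) for HOXD11. With each library left out they ranged from -0.10 to 0.085 for HOXA5, -0.042 to 0.036 for HOXA7, -0.25 to 0.11 for HOXA13, -0.031 to 0.34 for HOXB6, -0.072 to 0.086 for HOXC4, -0.24 to 0.19 for HOXC10 and -0.12 to 0.31 for HOXD11. The cause was not tested. None of the 11 members with a mean under 100 had its interval within 0.5. With levels per kilobase of all exons in place of the longest transcript, 10 members moved by more than their SD over the libraries, 2 of them by over 1.5 times, HOXB3 from 70.6 to 40.02 and HOXC4 from 181 to 112 normalized counts per kilobase.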
